A study of Mus musculus with 12 samples.

Results

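This account covers the mouse loci of Brpf1, Commd7, Dnmt3b, Ggnbp2 and Myo19, 5 genes in 3 windows of the mm9 genome where strong peaks of the zinc-finger protein ZFAT were listed. The windows were chromosome 6 from 113240000 to 113275000 (Brpf1, 35 kb), chromosome 2 from 153440000 to 153515000 (Commd7 and Dnmt3b, 75 kb) and chromosome 11 from 84640000 to 84730000 (Ggnbp2 and Myo19, 90 kb). They were chosen by the strength of their ZFAT peaks in the lists described here, so the ZFAT values are a description and carry no test. All 37 peaks that overlapped a window by at least 1 bp were taken, of 21883 peaks in 7 lists. They comprised 8 ZFAT peaks in floxed thymocytes, 6 ZFAT peaks in Lck-Cre thymocytes, 7 and 6 ZFAT peaks in B6 thymocytes called against input and against IgG, 10 H3K9ac/K27ac peaks in floxed thymocytes, and 0 peaks of the Lck-Cre H3K9ac/K27ac and floxed H3K9me3 lists.

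The thymocytes, the immature T cells of the thymus, came from mice aged 4 to 5 weeks. Zfatf/f mice (called floxed here) carry Zfat alleles flanked by recombination sites and no Cre. Zfatf/f-LckCre mice (Lck-Cre) carry the same floxed alleles and Cre driven by the Lck promoter, which is active in T lineage cells, so floxed Zfat is the shared background of both groups. C57BL/6 mice (B6) carry unmodified Zfat. Each group was 1 ChIP-seq library, with nothing in the labels on pooling of animals, and no difference between groups has a replicate check. The lists do not measure how far Zfat was deleted in the Lck-Cre cells. The cell type label was not checked against marker genes, because no mm9 gene annotation was used here.

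ZFAT is a nuclear protein with zinc fingers and an AT-hook, known for its part in the development and survival of T cells. ChIP-seq recovers DNA bound by such a protein, or wrapped around histones with a given mark, and a peak caller lists stretches where the recovered fragments exceed a local background. Acetylated histone H3 (H3K9ac/K27ac) is typical of active promoters and enhancers, and H3K9me3 of silenced chromatin. Among the 5 genes, Brpf1 encodes a scaffold of the MOZ and MORF histone acetyltransferase complexes, and Dnmt3b encodes a DNA methyltransferase that sets new methylation marks. Commd7 encodes a COMM domain protein linked to NF-κB regulation. Ggnbp2 encodes a gametogenetin-binding protein needed for sperm formation, and Myo19 a myosin that sits on mitochondria.

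All 5 member genes had a promoter sequence in the RefSeq table, taken from build GRCm38.p6 as 250 bases before and 50 bases after the gene's start. The sequences are on the strand of the gene, 5′ to 3′. The 3 below are shown because they hold a common stretch at the start of the gene, given in capitals. In Brpf1 (chr6:113306887-113307186, plus strand) and Commd7 (chr2:153632732-153633031, minus strand) the capitals mark the longest word shared by any pair of the 5 promoters. In Myo19 (chr11:84879920-84880219, plus strand) they mark the reverse complement of its last 9 bases.
Brpf1: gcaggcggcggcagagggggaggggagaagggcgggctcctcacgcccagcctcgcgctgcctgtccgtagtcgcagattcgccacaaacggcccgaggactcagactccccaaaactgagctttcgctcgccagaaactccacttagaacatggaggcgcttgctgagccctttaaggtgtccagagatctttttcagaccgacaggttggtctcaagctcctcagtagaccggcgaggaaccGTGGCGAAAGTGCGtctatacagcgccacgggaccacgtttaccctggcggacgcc
Commd7: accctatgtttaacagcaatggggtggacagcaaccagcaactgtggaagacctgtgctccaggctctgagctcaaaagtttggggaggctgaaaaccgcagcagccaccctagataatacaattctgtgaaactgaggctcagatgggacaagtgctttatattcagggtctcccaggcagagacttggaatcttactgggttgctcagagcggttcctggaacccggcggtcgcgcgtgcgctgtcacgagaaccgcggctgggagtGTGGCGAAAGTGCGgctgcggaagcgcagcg
Myo19: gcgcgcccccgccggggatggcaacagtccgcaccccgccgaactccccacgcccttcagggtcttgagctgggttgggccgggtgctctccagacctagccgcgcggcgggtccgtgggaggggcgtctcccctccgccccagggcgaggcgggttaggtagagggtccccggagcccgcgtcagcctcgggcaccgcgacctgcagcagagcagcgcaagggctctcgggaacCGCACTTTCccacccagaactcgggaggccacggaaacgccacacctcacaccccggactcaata

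The shared word, GTGGCGAAAGTGCG, was 14 bases long and ran in the direction of the gene in both promoters. It spanned positions -6 to 8 around the start in Brpf1 and lay at positions 20 to 33 in Commd7. Searched on both strands, it was present in 2 of the 32851 promoters of the table, those of Brpf1 and Commd7. Its last 9 bases, GAAAGTGCG, were also found on the opposite strand of Myo19, at positions -15 to -7, and in 53 promoters in all (0.161%). The same 9 bases were found in the promoter of Pigw, a gene of GPI anchor synthesis, whose start in the table lies 25 bases from that of Myo19 on the other strand. The closest match to the 14 bases had 3 mismatches in Myo19, a level reached by 2.35% of all promoters. It had 4 in Dnmt3b and Ggnbp2, reached by 19.3%. The word was found by comparing these 5 promoters, so its rarity is a description, not a test. The 9 bases were picked as the longest piece of the word held by at least 3 of the 5 promoters. Their presence in a promoter besides Brpf1 and Commd7 was therefore set by that choice. The 53 promoters count Myo19 and Pigw separately, though their starts are 25 bases apart. The other pairs of member promoters shared at most 9 to 12 bases, in words held by 18 to 2093 promoters. Peaks are in mm9 and the promoters in GRCm38.p6, so the place of the word within a peak was not measured.

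Of the motifs searched on both strands, the GC box GGGCGG was found in 4 of the 5 promoters, Brpf1, Dnmt3b, Ggnbp2 and Myo19, against 35.7% of all promoters. These 4 promoters had 61.7 to 76% G and C bases, against a median of 52.7% over the table. The share among promoters equally rich in G and C was not measured, so nothing is read from this count. TGACG was found in Myo19 (20.8% of all promoters) and GAANCTGC in Brpf1 (5.36%), neither overlapping the shared word. CCAAT (37.4%), CCGGAAG (8.86%), CACGTG (7.15%) and GCATGCG (3.58%) were in none of these 5 windows of 300 bases. The members' promoters held 16 to 31 CG dinucleotides, Commd7 the fewest and Myo19 the most, against a median of 7 over the table.

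In floxed thymocytes ZFAT formed 5 peaks at the upper limit of the caller's P score (−log10 of its p, which stops at 323), 1 in the Brpf1 window and 2 in each of the others. The Brpf1 peak spanned 113256673 to 113257747 on chromosome 6. The pair on chromosome 2 spanned 153458164 to 153458672 and 153474730 to 153476162, with summits 17120 bp apart. The pair on chromosome 11 spanned 84683044 to 84684591 and 84693207 to 84694031, with summits 9989 bp apart. In GRCm38.p6 the genes of each pair are read away from each other, the lower gene from the minus strand and the higher from the plus strand. Their starts are 16668 bp apart for Commd7 and Dnmt3b, and 9380 bp apart for Ggnbp2 and Myo19. The peaks are therefore named by the order of the genes (Commd7-side, Dnmt3b-side, Ggnbp2-side and Myo19-side). That each lies on its gene's promoter, as the name of the set implies, was not measured. The Myo19-side peak is named for Myo19 only by that order, since Pigw starts at nearly the same place.

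The 5 sites appeared in all 4 ZFAT lists, and the plot of peaks around each floxed summit shows how closely they coincided. The nearest Lck-Cre ZFAT summit lay 0 to 25 bp from the floxed summit at each site, and the nearest B6 summit 2 to 21 bp in either list. The second Lck-Cre peak at Brpf1 had its summit 386 bp away. Over the whole floxed list, the median distance to the nearest overlapping peak's summit was 12 bp for 31 floxed peaks with an Lck-Cre peak and 16.5 bp for 142 with a B6 peak called against input. The peaks differed more in width. The Dnmt3b-side peak was 1433 bp long in floxed thymocytes and 560 bp in Lck-Cre. In both B6 lists it was split, with a second peak whose summit lay 515 bp (input) or 516 bp (IgG) from the floxed summit. The Commd7-side peak was the narrowest of the 5 floxed peaks, at 509 bp, and the Ggnbp2-side peak the widest, at 1548 bp.

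**Figure D1:**
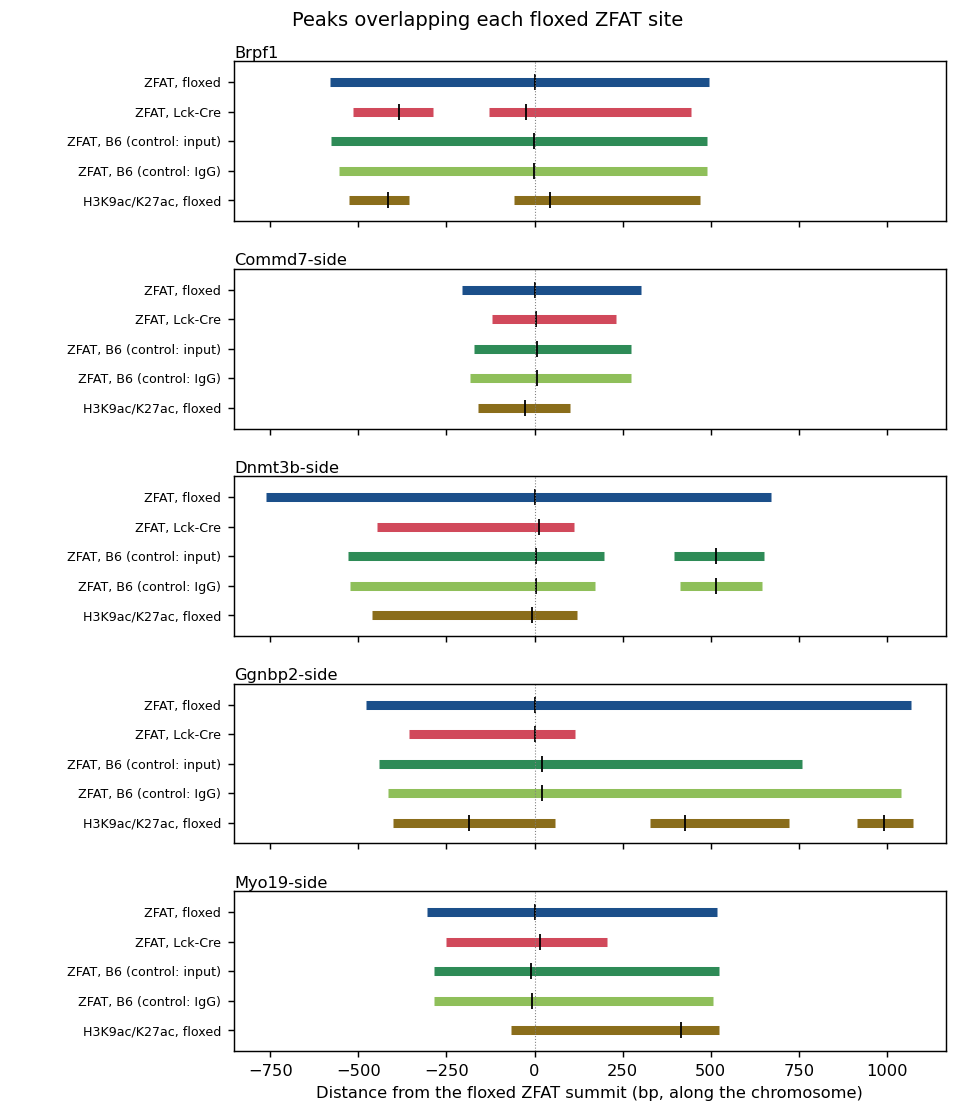
Extent of every peak overlapping the 5 floxed ZFAT sites, as distance in bp from the floxed ZFAT summit, for the 4 ZFAT lists and floxed H3K9ac/K27ac; black ticks are summits. The nearest ZFAT summits lie within 25 bp of each other at all 5 sites, and 2 acetylation peaks at Brpf1 sit over the 2 Lck-Cre ZFAT peaks.

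The fold of a peak is the value the authors give for ChIP signal divided by local background. At the Brpf1 site it was 136 in floxed, 14.3 in Lck-Cre (with a second Lck-Cre peak at 13.9), 153 in B6 against input and 176 in B6 against IgG. At the Commd7-side site the values were 211 in floxed, 26.6 in Lck-Cre, 239 in B6 against input and 256 against IgG. Both sites thus had their lowest fold in the Lck-Cre library and a B6 fold slightly above the floxed one. At the Dnmt3b-side site the folds were 298 in floxed, 14.6 in Lck-Cre, 227 in B6 against input and 152 against IgG. This was the one site where both B6 folds lay below the floxed fold. At the Ggnbp2-side site they were 122, 8.81, 140 and 122 in the same order, and at the Myo19-side site 95.4, 12.6, 158 and 137. The Lck-Cre fold was the lowest of the 4 at each of the 5 sites.

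**Figure D2:**
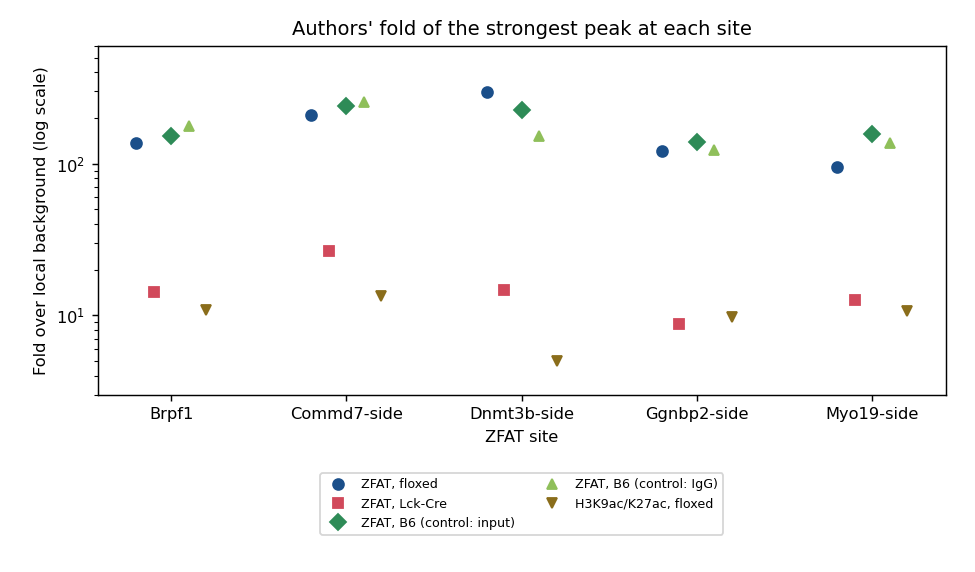
Authors' fold over local background (log axis) of the strongest overlapping peak at each of the 5 sites, 1 library per symbol; the 2 B6 symbols share 1 ChIP library. Lck-Cre ZFAT folds of 8.81 to 26.6 lie below all floxed and B6 ZFAT folds, which run from 95.4 to 298, while the acetylation folds run from 5.02 to 13.4.

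The ratio of floxed to Lck-Cre fold ranged from 7.56 at the Myo19-side site to 20.3 at the Dnmt3b-side site. The same ratio was 3.92 to 25, with a median of 13.1, at 17 of the 18 other floxed peaks at the P limit, the 17 that had an Lck-Cre peak. The 5 ratios lay inside that range. The order of the sites by fold differed between libraries. Dnmt3b-side came first and Commd7-side second in floxed thymocytes, Commd7-side came first in the other 3 lists, and the Ggnbp2-side or Myo19-side site came last in each of the 4. With 1 library each, the spread of a fold between libraries of a group is not known, and neighbours in these orders cannot be separated.

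A fold has no fixed meaning without its background, and the number of fragments behind each peak was therefore inferred from its fold and P score. In the Lck-Cre library the summits held 117 fragments at Brpf1 (95% Poisson interval 96.8 to 140.2), 193 at Commd7-side (167 to 222), 113 at Dnmt3b-side (93.1 to 136), 59 at Ggnbp2-side (44.9 to 76.1) and 85 at Myo19-side (67.9 to 105). These are far above the median of 5 fragments over the Lck-Cre ZFAT list. At the P limit only a lower bound is known for floxed thymocytes, at least 152, 236, 333, 136 and 158 fragments in the same order of sites. These bounds are loose, because they allow a background as low as 0.121, the lowest of the floxed list. The Lck-Cre background at the 5 sites was 5.81 to 7.27. A higher floxed background would raise the bounds, so a bound inside an interval does not mean equal counts. Scaled to the inferred Lck-Cre depth the bounds became 136, 211, 298, 122 and 141. The bound lay above the Lck-Cre interval at the Dnmt3b-side, Ggnbp2-side and Myo19-side sites. At Brpf1 and Commd7-side it lay inside the interval, while the folds differed by 9.56 and 7.94 times. The intervals cover counting error in 1 library, the sites were chosen for high floxed values and the spread between libraries is not known, so these placements do not show at any of the 5 sites whether the groups differ.

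**Figure D3:**
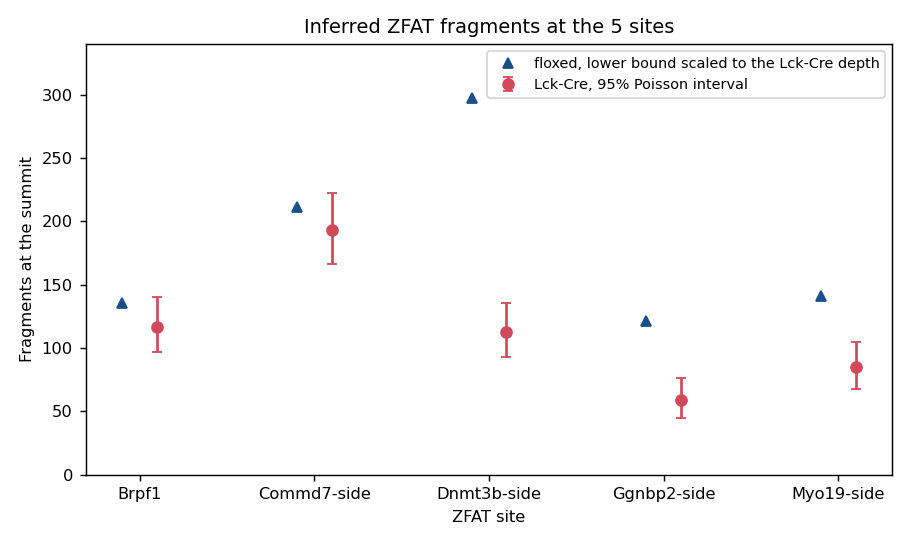
Inferred fragments at the ZFAT summit of the 5 sites: Lck-Cre counts with 95% Poisson intervals (counting error only), and lower bounds for floxed thymocytes (triangles) scaled to the Lck-Cre depth. The floxed bound lies above the Lck-Cre interval at Dnmt3b-side, Ggnbp2-side and Myo19-side and inside it at Brpf1 and Commd7-side. The floxed counts themselves may lie anywhere above their bounds, which allow a background as low as the lowest of the floxed list.

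The background behind the folds is known in part. At the 6 Lck-Cre ZFAT peaks it was 3.02 to 7.27 scaled control fragments, 27.9 to 67.1 times the lowest background of that list, where the median peak stood at 1 times the lowest. In other lists the values are known only at the peaks below the P limit. The background was 2.24 at 2 B6 peaks called against input (44.1 times the lowest, list median 1.56). It was 3.63 at 1 B6 peak called against IgG (71.6 times, list median 1). The floxed acetylation and ZFAT values lay on both sides of their list medians. At the 10 floxed acetylation peaks it was 1.35 to 9.48 (7.66 to 53.9 times, list median 19.3). At 3 floxed ZFAT peaks of the Brpf1 window it was 0.408 to 2.04 (3.37 to 16.9 times, list median 5.62). For the floxed peaks at the P limit the background is not known, and its part in the fold ratios was not tested. Which control library was used for these peaks is not named in the headers.

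By fold, the floxed peaks ranked 4 (Dnmt3b-side), 6 (Commd7-side), 15 (Brpf1), 16 (Ggnbp2-side) and 19 (Myo19-side) of 1719. In B6 against input they ranked 7, 6, 14, 15 and 12 of 2000, against IgG 8, 5, 6, 13 and 10 of 427, and in the Lck-Cre list 8, 4, 10, 19 and 14 of 108. In the Lck-Cre list, 16.7% of peaks ranked above the Ggnbp2-side peak. The floxed folds next to them were close. The 3 peaks above Dnmt3b-side had folds of 311 to 355 and the 5 below it 202 to 278, and the 5 on either side of Brpf1 ran from 142 to 179 and from 86.8 to 122.

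**Figure D4:**
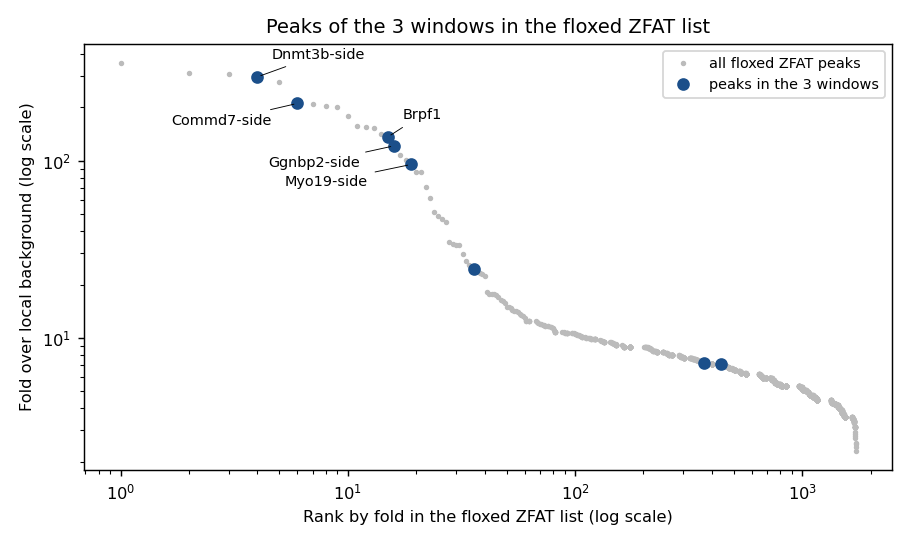
Fold against rank by fold for all 1719 floxed ZFAT peaks (both axes logarithmic), with the 8 peaks of the 3 windows in blue. The 5 named sites rank 4 to 19, and the remaining Brpf1 window peaks rank 36, 369 and 441.

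The Brpf1 window held 3 further floxed ZFAT peaks. The first, 113259189 to 113259472, had a fold of 24.3 and 73 fragments (57.2 to 91.8). A B6 peak called against input lay there with a fold of 5.56 and 17 fragments (9.90 to 27.2), and neither the Lck-Cre list nor the B6 list called against IgG had a peak. These unscaled counts come from libraries of about 1510000 (floxed) and 632000 (B6) inferred fragments. The others, 113259947 to 113260103 (fold 7.10, 9 fragments, 4.12 to 17.1) and 113269123 to 113269320 (fold 7.20, 16 fragments, 9.15 to 25.98), had no overlapping peak in any other list. None of the 3 overlapped an acetylation peak. The chromosome 2 and 11 windows held no floxed ZFAT peak besides the named sites.

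Of the 8 floxed ZFAT peaks in the windows, 5 coincided with a peak of the Lck-Cre list, and 1.8% of the whole floxed list did. A B6 peak overlapped 6 when called against input (8.26% of the list) and 5 when called against IgG (5.29%). Acetylation overlapped 5, the named sites, against 25.8% of the list, and H3K9me3 overlapped 0, against 4.48%. These windows were chosen for their strong ZFAT peaks, and nothing is read from any of these counts. With 8 peaks, a count of 0 for H3K9me3 is close to its share over the list. Among the 18 other floxed peaks at the P limit, 17 had an Lck-Cre peak, 18 a B6 peak against input, 14 an acetylation peak and 0 an H3K9me3 peak. The H3K9me3 peak nearest to a site lay 63.1 kb from Brpf1, and those nearest to the other sites lay 1407 to 1979 kb away.

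Of the 10 H3K9ac/K27ac peaks in the windows, 8 overlapped a floxed ZFAT peak, against 3.43% of the 13016 floxed acetylation peaks. The windows were chosen for their ZFAT peaks, so nothing is read from this count. The remaining peaks were on chromosome 11, at 84642225 to 84642687 (fold 6.31) and 84729640 to 84729821 (fold 8.02). The strongest acetylation peak was at the Commd7-side site, 153458210 to 153458472, with a fold of 13.4 and 85 fragments. The Dnmt3b-side site, with the highest floxed ZFAT fold, had the lowest acetylation fold, 5.02 from 38 fragments. The peaks of the windows were ordinary in strength, with a median P score of 26.8 and fold of 8.13, against 25.9 and 8.62 over the list.

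The ZFAT and acetylation summits nearly coincided at some sites and not at others. The nearest acetylation summit lay 8 bp from the floxed ZFAT summit at Dnmt3b-side, 27 bp at Commd7-side and 44 bp at Brpf1, but 186 bp at Ggnbp2-side and 416 bp at Myo19-side. Over the 443 floxed ZFAT peaks with an acetylation peak the median was 32 bp. At Brpf1, acetylation formed 2 peaks, 113256727 to 113256896 and 113257195 to 113257722, and the Lck-Cre ZFAT library also formed 2, 113256737 to 113256966 and 113257123 to 113257698. The pairs shared 66.7% and 84% of their combined lengths. At Dnmt3b-side the Lck-Cre ZFAT peak and the floxed acetylation peak shared 96.2%, with starts 14 bp and ends 8 bp apart. The shares were 79.6% at Ggnbp2-side, 56.6% at Commd7-side and 35.1% at Myo19-side. Such shares were not measured for the B6 lists or for other peaks at the P limit. At Dnmt3b-side the wider B6 peak against input, 153474963 to 153475688, also covered the whole acetylation peak, 153475030 to 153475611. The Ggnbp2-side site carried 3 acetylation peaks under 1 floxed ZFAT peak.

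In the Lck-Cre acetylation list, 0 of the 10 floxed acetylation peaks of the windows had an overlapping peak, which would allow a share of up to 30% were the peaks independent. They come from 3 loci, several at 1 site, and 1 library per group, so nothing is read from this limit. The share over the whole floxed list was 12.3%, and 12.8% (986 of 7701) among floxed peaks within the same range of P score, 16.8 to 69.6. The Commd7-side peak lay in the highest decile of P score, where 45.5% of floxed peaks had an Lck-Cre peak, and 4 of the 10 lay in the fourth decile, where 3.99% did. The inferred depths were about 2190000 fragments in floxed and 1340000 in Lck-Cre thymocytes. Floxed pileups of 22 to 85 fragments, scaled to the Lck-Cre depth together with their background, kept P scores of 10.7 to 43.5, all above the threshold of 5. This scaling takes enrichment as equal in both libraries. The Lck-Cre list was weaker as a whole, with 2225 peaks against 13016 and a median fold of 4.86 against 8.62. Its median peak held 18 fragments, against 38 in the floxed list. The scaled scores therefore do not tell whether a peak should have been called in Lck-Cre, and the part of depth or enrichment was not tested. Among the 14 other floxed ZFAT peaks at the P limit with acetylation, 3 had acetylation that was also called in Lck-Cre.

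**Figure D5:**
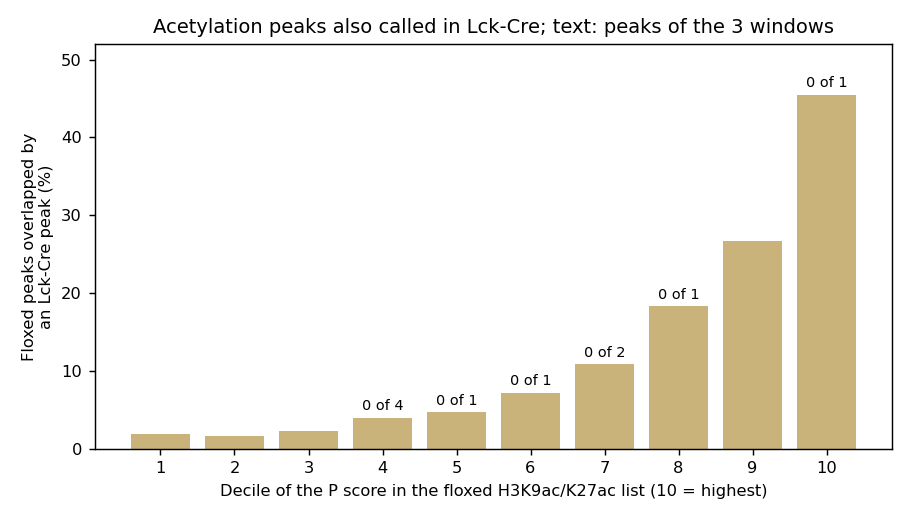
Percent of floxed H3K9ac/K27ac peaks overlapped by an Lck-Cre peak, by decile of P score (bars), with the count for the peaks of the 3 windows written above. The bars rise from 1.92% in the lowest decile to 45.5% in the highest, and 0 peaks of the windows recur in any decile they occupy.

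The bounds of the windows cut through no ZFAT site. The floxed ZFAT peaks nearest outside had folds of 4.15 to 7.74. On the lower side of the chromosome 11 window, 7.25 kb out, a floxed ZFAT peak at 84632433 to 84632747 had a fold of 4.84. A B6 peak against input (fold 6.61) and a floxed acetylation peak (fold 4.36) overlapped it. Just inside that window the outermost peaks were the acetylation peaks at 84642225 and 84729640 given above. Beyond the upper bound of the chromosome 2 window, 52.1 kb out, lay a floxed acetylation peak with a fold of 5.70 (153567103 to 153567512), and the Lck-Cre acetylation list had a peak there with a fold of 4.60 (153567112 to 153567465). This was the Lck-Cre acetylation peak nearest to either chromosome 2 site. For Brpf1 and the chromosome 11 sites the nearest lay 229.7 to 282 kb away.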

How the data were processed

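Chromatin of thymocytes was fixed with 1% formaldehyde for 10 min, digested for 0.5 h with micrococcal nuclease (375 units) and sonicated, per the labels' protocols. The authors deposited mm9 peak lists, 1 per ChIP library and 2 for B6. Per the submitters' processing notes the tools included MACS, SAMtools 0.1.18, Trimmomatic 0.22 and CASAVA 1.8.1. No aligner was named in the sources used here. The fragment length was 150 bp, the p threshold 1e-05 and the background local, per the file headers. Per the file headers, peaks carry P and Q scores, read here as the −log10 of p and of adjusted p. The fold, a ratio of ChIP to local background, is the authors' value for each peak; scores and folds describe peaks within a list. The 6 input and IgG samples were not analysed here.

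Peaks were taken as overlapping at 1 bp or more (Python 3.11.15, pandas 2.3.3). A whole pileup and a background were solved from fold, as (pileup + 1)/(background + 1), and P score, as the Poisson tail, within 0.0001. The solver was tested on simulated data. Of 1696 floxed ZFAT peaks below the P limit, 1696 had 1 solution. At the limit, a lower bound is given, the smallest pileup that reaches the limit at the deposited fold with a background no lower than the lowest of the list. Depth is inferred from the lowest background of a list. It came to about 1510000 fragments for floxed, 1350000 for Lck-Cre and 632000 for B6 ZFAT. Intervals and floors cover counting error only. The members, gene order names, motifs and lists were chosen with earlier results of these data known. All peaks of the windows are reported; the lists of partner genes and cell markers needed an mm9 annotation and were not used here.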

Additional observations from a re-analysis of the deposited data

How the results depend on the processing

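Of 53 alternative values, 51 stayed within 1.5 times the reported count or rank. They came from stricter P scores of 10 and 20, windows widened or narrowed by 5 kb, an overlap of at least 50%, summits at most 200 bp apart, ranking by fold or Q score, and B6 peaks called against IgG. Not all of these values were free to move, so the 51 are no measure of stability. The strongest floxed ZFAT peak of each window was tied at the upper limit of the P and Q scores. Ties were ordered by fold, so the rankings by P score, Q score and fold gave the same order. When 50% of the floxed ZFAT peak had to be covered, 3 of the 5 peaks with an Lck-Cre peak and 2 of the 5 with an acetylation peak were left. By construction this rule drops overlaps by narrower peaks. The counts of 0 for H3K9me3 and Lck-Cre acetylation peaks, in the windows and over their members, stayed at 0 under every alternative run. Stricter P scores, narrowed windows and the 50% overlap can only remove peaks, so a 0 was fixed there. Only windows widened by 5 kb and summits at most 200 bp apart could have added a peak, and neither did. No paired analysis was possible because each ChIP group had 1 library, and the input samples that share replicate numbers were not analysed here. The ceiling of the P score leaves a lower bound in place of a count for the floxed and leading B6 peaks at the 5 sites. The absence of replicates leaves every difference between libraries without an error.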
